A study of Mus musculus with 6 samples.

Results

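A set of 41 mouse genes of programmed cell death was followed in cells labelled as lymphatic endothelial cells: p53 with its regulators and targets (12 genes), the BCL2 family (11), caspases with their adaptors and inhibitors (10), and genes of necroptosis and pyroptosis (8). The genes were chosen by symbol. Of the 41, 39 are among the 15528 gene symbols of the count table and 36 had enough counts to be tested. Gdf15, Bik and Nlrp3 were listed with a few counts each and were not tested, and Pmaip1 and Pycard were not analysed here. Poly(A) RNA was sequenced after 24 h with red blood cells (RBC, 3 libraries) and from 3 control libraries of the same labelled cell type, also at 24 h. The amount and origin of the red blood cells, and whether the cells were a line or a primary culture, are not stated in the labels, nor is any genotype or agent beyond the red blood cells. Nothing in the labels ties a replicate to a culture or animal of its own; p-values here reflect library-to-library spread, which may be technical.

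Programmed death of a cell runs along several routes. The transcription factor p53 is stabilised after DNA damage and other stress and raises genes that stop the cell cycle, repair DNA or favour death. In apoptosis, proteins of the BCL2 family decide whether the outer mitochondrial membrane is opened, after which initiator caspases activate executioner caspases. Necroptosis and pyroptosis are lytic: the kinases RIPK1 and RIPK3 drive the membrane-disrupting protein MLKL, and inflammatory caspases cleave gasdermin D, whose fragments form pores in the plasma membrane. Much of this machinery is switched on by cleavage, phosphorylation or assembly of proteins, which transcript levels do not show.

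Total counts lay between 18000112 and 18327247 in the RBC libraries and between 17263359 and 18381419 in the controls. Control replicate 2 stood apart, its counts giving a mean chi-square over genes of 28.2 and 26.7 when set against the other controls, which differed from each other by 1.99. The 3 RBC libraries differed among themselves by 1.73 to 2.13. The endothelial markers were uneven. The lymphatic list (10 of 16 listed, 4 tested, Stab1 called higher) summed to 562 to 594 CPM in RBC libraries and to 399.8 to 503 CPM in controls, most of it Nrp2, Nr2f2 and Stab1, and the pan-endothelial list (10 of 16 listed) to 323 to 325 and 281 to 313 CPM, most of it Ets1 and Eng. Pdpn had 2 counts over the RBC libraries and 6 over the controls, Cdh5 had 11 and 7, and Kdr had 1 and 0, while Prox1 and Lyve1 were not analysed here. Pecam1 had 13.7 ± 0.40 CPM (the usual depth-scaled count, over all genes listed) in RBC cells and 14.98 ± 1.88 CPM in controls (SD, n = 3 each). Epithelial and mesothelial markers (8 of 10 listed, led by Krt8 and Msln) summed to 614 to 636 CPM in RBC libraries and to 658 to 738 CPM in controls, and fibroblast and mural markers (10 of 12 listed, nearly all Col1a2) to 452 to 470 and 443 to 493 CPM. The cell type is taken from the label. Erythroid markers (13 of 14 listed) summed to 588 to 674 CPM in RBC libraries and to 48.9 to 55.1 CPM in controls. Leukocyte markers (16 of 18 listed, 6 tested, 4 called higher) summed to 52.3 to 58.2 CPM in RBC libraries and to 43.3 to 49.9 CPM in controls. Most of both sums was Csf1r and Cd68, which were not called. The 4 called were Ptprc, Adgre1, Lyz2 and Itgb2. None of the 16 was at 0 over the RBC libraries, and Ptprc, Ms4a1, Adgre1, Tyrobp and Spi1 were at 0 in all controls. Over all tested genes 1.16% were called higher. In bulk RNA, a change in the share of a cell type and a change in the RNA of each cell cannot be told apart.

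The death genes as a set were close to level between RBC and control cells. In edgeR's quasi-likelihood test over 11208 genes, 1 of the 36 tested members, Plk2, passed a Benjamini-Hochberg adjusted p of 0.05, and it was higher with red blood cells; over all tested genes 1.46% were called, 1.16% higher and 0.303% lower. No member was called lower, nor was any with DESeq2 or limma voom, which called Plk2 alone among the members and 1.74% and 1.44% of all genes they tested. At an unadjusted p under 0.05 there were 6 members, 5 higher and 1 lower, where 9.99% of all tested genes reached it. The median log2 fold change (RBC over control) was 0.01 over the 36 members and 0.00 over all tested genes, and 19 members had positive and 17 negative values. The RBC libraries lay above all controls in 8 tested members (10.4% of all tested genes) and below all of them in 4 (9.19%). For 31 of the 36 members, 86.1%, the 95% interval of the log2 fold change lay between -0.5 and 0.5, a limit chosen after the values were seen; this held for 83.0% of all tested genes. The 5 others were Plk2, Casp4, Bbc3, Casp1 and Ripk3, of which Bbc3, Casp1, Ripk3 and Casp4 had under 6 CPM on average in each group.

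**Figure D1:**
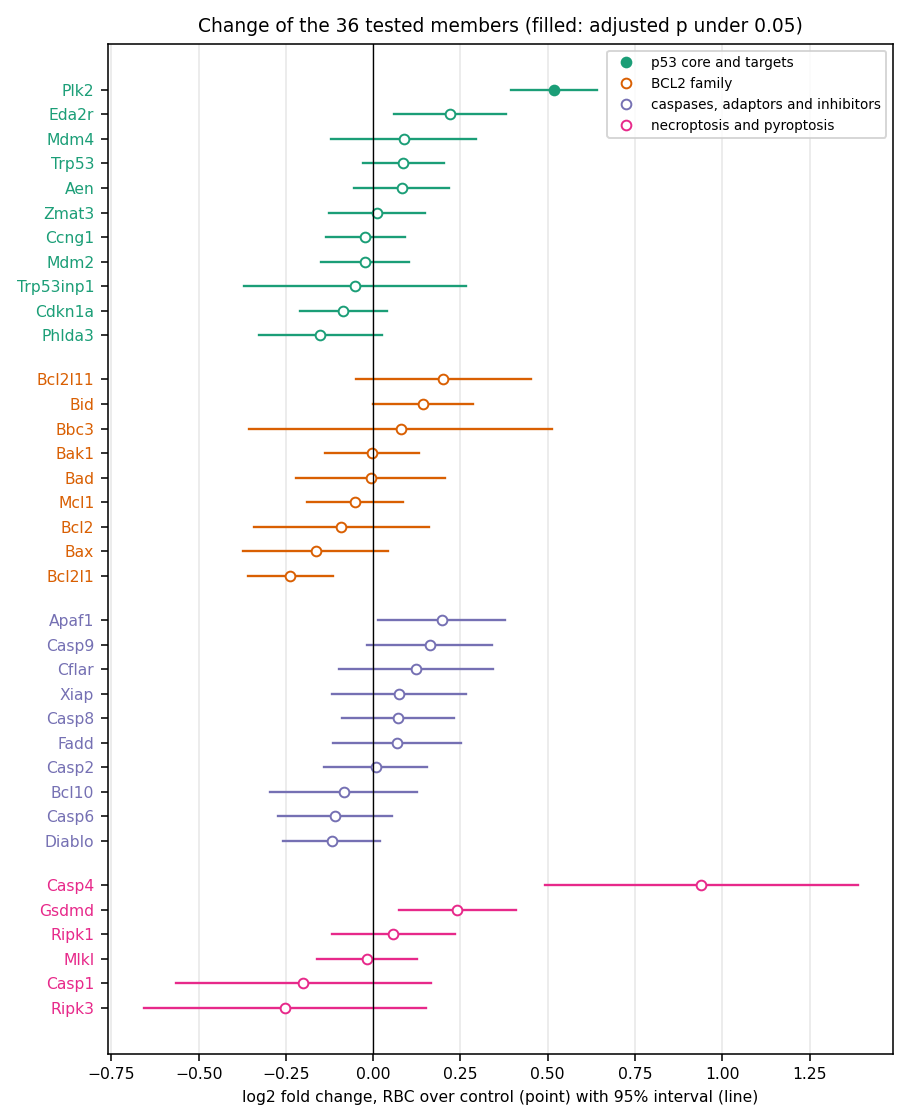
Log2 fold change, RBC over control, of each of the 36 tested members (point) with its 95% interval (line), on a linear axis and grouped by role (colour). Plk2, the 1 filled point, had 0.52, and Casp4 lay farthest to the right at 0.94 with an interval of 0.49 to 1.39.

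Levels spread over more than 3 orders of magnitude. On the FPKM scale of the deposited table (counts scaled by gene model length and library total), which allows genes to be compared, 20 listed members averaged 10 FPKM or more in RBC cells and 19 did so in controls. Under 1 FPKM lay 4 members in RBC cells, Gdf15, Bik, Nlrp3 and Ripk3, and 3 in controls, where Ripk3 averaged 1.08 FPKM. The highest levels were those of Plk2 (136 ± 2.40 FPKM in RBC cells and 95.2 ± 4.17 FPKM in controls), the pore-forming proteins Bak1 (108 ± 6.28 and 109 ± 2.63 FPKM) and Bax (90.2 ± 4.003 and 101 ± 13.2 FPKM) and Trp53 itself (59.1 ± 1.353 and 55.7 ± 0.51 FPKM; SD, n = 3 each).

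**Figure D2:**
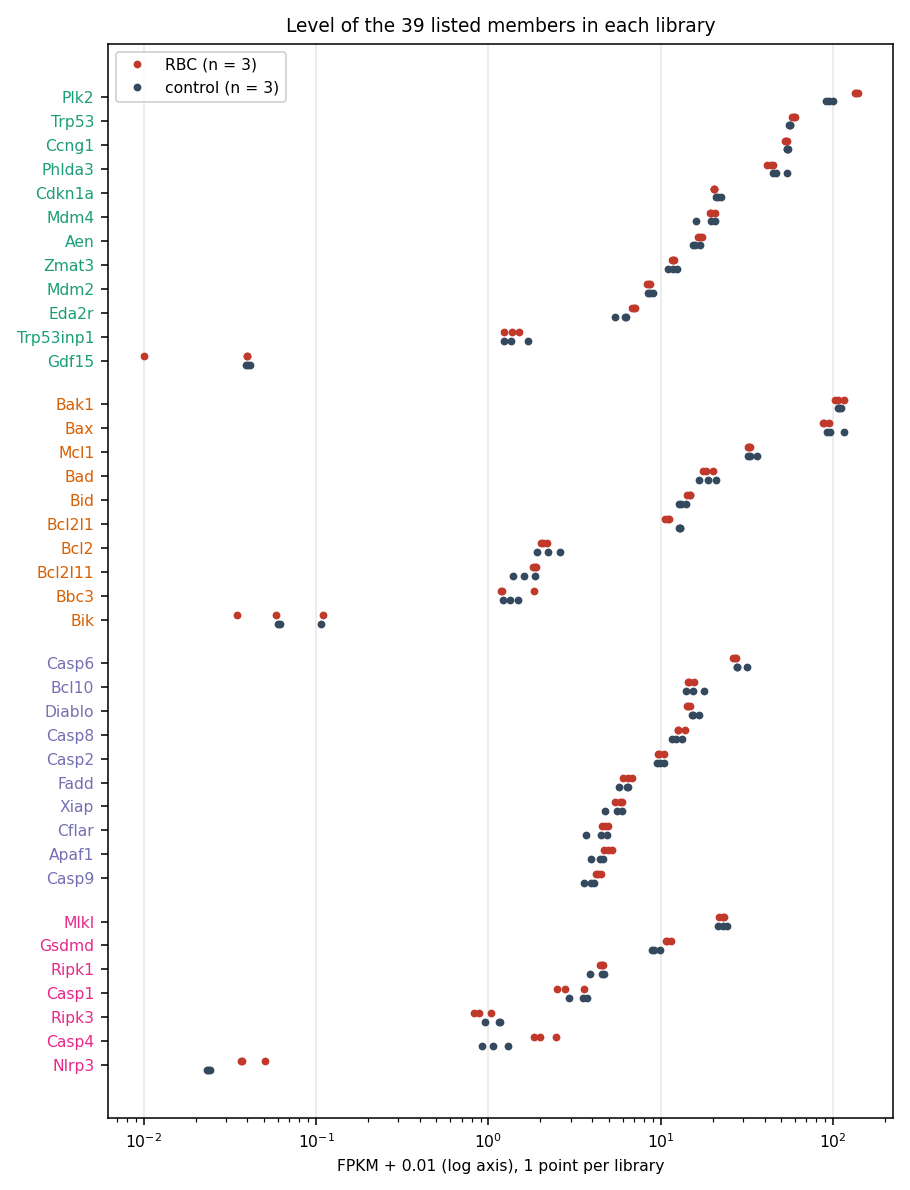
FPKM + 0.01 on a log axis for the 39 listed members in the 3 RBC libraries (red, upper row of each gene) and the 3 control libraries (dark, lower row), 1 point per library, with gene names coloured by role and ordered by their control mean. Gdf15, Bik and Nlrp3 stand far to the left of the other members of their roles in both groups.

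Among p53, its regulators and its targets, 1 of 11 tested members was called, where 1.46% of all tested genes were. The median log2 fold change of the group was 0.01. Plk2, a polo-like serine/threonine kinase that p53 can induce, had 374.5, 388 and 382 CPM in RBC replicates 1 to 3, against 279, 256 and 265 CPM in control replicates 1 to 3. All 3 RBC libraries stood above all controls, with no overlap. The log2 fold change was 0.52 ± 0.05 (SE), a 1.43-fold rise, with an adjusted p of 0.0021 in edgeR. The rise was called under each of the 18 alternative settings and left-out libraries, where it lay between 0.49 and 0.55.

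The regulators and standard targets of p53 were not called. Trp53 had 136, 132 and 138 CPM in RBC cells, against 128, 128.5 and 126 CPM in controls, with RBC libraries above all controls by a small margin (log2 fold change 0.09 ± 0.05 SE; edgeR adjusted p = 0.61). Mdm2, the ligase that marks p53 for degradation and is itself a p53 target, had 61.8, 64.4 and 63.6 CPM in RBC cells and 62.4, 66.4 and 64.4 CPM in controls. Cdkn1a encodes p21, the inhibitor of cyclin-dependent kinases that is a standard readout of p53. It had 41.4, 41.2 and 41.3 CPM in RBC cells, against 43.5, 45.3 and 42.8 CPM in controls, so that every RBC library lay just below every control. Its log2 fold change was -0.09, with a 95% interval from -0.21 to 0.04, and it was not called (edgeR adjusted p = 0.64).

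The other tested members of the group were not called either. Eda2r, a receptor of the TNF receptor superfamily, had 39.5, 40.6 and 40.1 CPM in RBC cells, against 36.3, 31.2 and 35.8 CPM in controls. The RBC libraries were again all higher, with a log2 fold change of 0.22 ± 0.07 (SE) and an unadjusted p of 0.013, which became 0.31 after adjustment in edgeR. Its value without control replicate 2, the lowest of the 6 libraries, was 0.15. Ccng1 (cyclin G1) had 186, 189 and 182 CPM in RBC cells, against 189, 189.9 and 187 CPM in controls. Ccng1, Zmat3 (an RNA-binding zinc-finger protein), Aen (a nuclease of apoptotic cells) and Mdm4 (a relative of Mdm2 that holds p53 inactive) had log2 fold changes between -0.02 and 0.09. Phlda3, a repressor of the kinase AKT, had -0.15, and Trp53inp1 had -0.05 with a wide interval from -0.37 to 0.27. Gdf15, a secreted stress cytokine, had 1, 0 and 1 counts in RBC libraries and 1 count in each control. The ratio of 0.66 carries an exact 95% interval from 0.055 to 5.73, which covers counting error only.

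The promoters of Plk2 and Cdkn1a are shown because one gene rose and the other, the textbook p53 target, did not. The sequences are those of RefSeq on GRCm38.p6, another build than the GRCm39 of the count table, and were matched by symbol; 36 of the 41 members have an entry. The window of Plk2 (chr13:110394794-110395093, plus strand) holds no match to the 10-base p53 element and 2 matches to GGGCGG on the minus strand, which are in capitals. RefSeq has 2 start sites for Cdkn1a. The window of its upstream start (chr17:29090729-29091028, plus strand) holds 2 p53 elements, in capitals. Their spacing meets the definition of a full p53 site given below. Only exact matches to the element were marked. The stretch tgacatgttc directly after GAACATGTCT has a mismatch, is in lower case and was not counted. The window of the other start (chr17:29093519-29093818, plus strand), not printed here, holds no p53 element and 2 matches to GGGCGG. The difference from Plk2 in p53 elements thus holds for the upstream window only. Each window has 300 bases, and p53 elements outside the windows were not searched for either gene.
Plk2: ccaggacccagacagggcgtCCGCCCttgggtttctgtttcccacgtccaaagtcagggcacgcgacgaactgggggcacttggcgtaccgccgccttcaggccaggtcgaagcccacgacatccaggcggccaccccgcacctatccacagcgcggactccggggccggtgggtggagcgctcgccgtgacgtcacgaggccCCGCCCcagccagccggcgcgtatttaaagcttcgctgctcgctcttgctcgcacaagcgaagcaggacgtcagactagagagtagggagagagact
Cdkn1a, upstream start: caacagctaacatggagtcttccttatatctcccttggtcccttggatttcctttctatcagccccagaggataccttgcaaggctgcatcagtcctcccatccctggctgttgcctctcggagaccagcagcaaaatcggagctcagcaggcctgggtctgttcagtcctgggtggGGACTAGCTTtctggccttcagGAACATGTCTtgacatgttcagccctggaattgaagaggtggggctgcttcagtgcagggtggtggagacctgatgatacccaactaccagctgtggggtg
Searched on both strands, the p53 element was found in 8.36% of all 32851 promoter windows of this length (9.55% of genes) and the full site (a pair of elements with up to 13 bases between them) in 0.0731%; GGGCGG was found in 35.7%. Of the 36 members with a window, 8 hold the element in at least 1 window (Aen, Bax, Ccng1, Cdkn1a, Mdm2, Nlrp3, Pycard and Trp53), and Cdkn1a alone holds the full site. A match describes letters in a window and not binding.

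In the BCL2 family none of 9 tested members was called by edgeR, DESeq2 or limma voom, and 1, Bcl2l1, had an unadjusted p under 0.05. The median log2 fold change was -0.01. Bcl2l1 encodes BCL-XL, which keeps mitochondria closed. It had 60.7, 58.3 and 61.1 CPM in RBC cells, against 69.9, 71.1 and 71.6 CPM in controls. The groups did not overlap, with every RBC library lower. The log2 fold change was -0.24 ± 0.05 (SE), with an unadjusted p of 0.0018 and an adjusted p of 0.090 in edgeR. Without control replicate 2 it was -0.24 and called (edgeR adjusted p = 2.5e-04). The fit that leaves out control replicate 2 called 7.96% of all tested genes, 4.19% higher and 3.77% lower. Over all 18 alternatives the value lay between -0.29 and -0.22, and the gene was called in 2.

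The other guardians, Mcl1 and Bcl2, were not called. Mcl1 had 278, 287 and 285 CPM in RBC cells and 286, 316 and 281 CPM in controls (log2 fold change -0.05, 95% interval -0.19 to 0.08). Bcl2 had 15.4 ± 0.66 CPM in RBC cells and 16.4 ± 2.49 CPM in controls. Its log2 fold change was -0.09 with all libraries (95% interval -0.34 to 0.16). Without control replicate 2 it was -0.19 and not called (edgeR adjusted p = 0.18). Per length, Mcl1 stood highest of these 3 inhibitors of death, at 32.5 FPKM in RBC cells and 33.7 FPKM in controls, Bcl2l1 had 10.9 and 12.9 FPKM, and Bcl2 had 2.09 and 2.23 FPKM.

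The proteins that open the membrane were abundant and were not called. Bak1 had 215, 206 and 230 CPM in RBC cells, against 214, 216 and 224 CPM in controls (log2 fold change 0.00, 95% interval -0.14 to 0.13). Bax had 82.5, 80.7 and 87.8 CPM in RBC cells, against 85.2, 108 and 88.5 CPM in controls. The libraries of Bax overlap, and control replicate 2 is the high one: its log2 fold change was -0.16 with all 6 libraries and -0.05 without it. Bax has the shortest gene model of the tested members, 928 bases.

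Among the BH3-only proteins, which trigger the others, no tested member was called. Bid, the one that caspase-8 cleaves, had 35.6, 34.2 and 35.5 CPM in RBC cells, against 33.6, 31.6 and 30.4 CPM in controls. Its RBC libraries were all higher, with a log2 fold change of 0.14 ± 0.06 (SE) and an adjusted p of 0.50 in edgeR. In the GENCODE M21 annotation 628 exonic bases of Bid overlap Bcl2l13 on the opposite strand, and the strand setting of the counting is not given. Bcl2l13 had 120 CPM in RBC cells and 111 CPM in controls. Its RBC libraries were also all higher (log2 fold change 0.12), and it was not called. The part of Bcl2l13 reads in the values of Bid was not tested. Bad, held in check by phosphorylation, had 28.3 ± 1.95 CPM in RBC cells and 28.5 ± 3.15 CPM in controls. In the same annotation 524 exonic bases of Bad lie opposite Gpr137, which had 13.8 CPM in RBC cells and 15.6 CPM in controls. Bcl2l11 (BIM) had 13.01 ± 0.26 and 11.3 ± 1.68 CPM, with log2 fold changes of 0.20 over all libraries and 0.10 without control replicate 2. Bbc3 (PUMA), a p53 target, had 3.83, 6.002 and 3.89 CPM in RBC cells and 4.81, 3.92 and 4.32 CPM in controls. Bik had 1, 2 and 4 counts in RBC libraries and 2, 4 and 2 counts in controls.

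Of the 10 caspases, adaptors and inhibitors, all were tested and none was called by edgeR, DESeq2 or limma voom; 1, Apaf1, had an unadjusted p under 0.05. Their log2 fold changes ran from -0.12 to 0.20 with a median of 0.07, and each 95% interval lay between -0.5 and 0.5. The median was 0.02 without control replicate 2, without control replicate 3 and with the length offset, and lay between 0.02 and 0.10 over the 6 fits that each leave out 1 library. Apaf1, the scaffold of the apoptosome that activates caspase-9, had 34.8, 32.8 and 31.3 CPM in RBC cells, against 30.8, 26.0 and 29.7 CPM in controls. Every RBC library lay above every control (log2 fold change 0.20 ± 0.08 SE; unadjusted p = 0.039; edgeR adjusted p = 0.46). Its partner Casp9, the initiator caspase of the mitochondrial route, had 16.8, 17.5 and 16.4 CPM in RBC cells, against 15.4, 14.0 and 15.97 CPM in controls, with a log2 fold change of 0.16. Without control replicate 2, which was the lowest library for both, the values were 0.13 for Apaf1 and 0.11 for Casp9.

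Casp6 and Diablo lay below the controls in every RBC library, as did 9.19% of all tested genes. Casp6, an executioner caspase that cleaves lamins, had 39.7, 40.2 and 38.9 CPM in RBC cells, against 40.6, 46.9 and 40.6 CPM in controls. Diablo, a mitochondrial protein that binds and blocks XIAP once released, had 56.0, 55.1 and 57.8 CPM in RBC cells, against 58.8, 64.8 and 59.8 CPM in controls. Their log2 fold changes were -0.11 and -0.12 with all libraries and -0.04 and -0.08 without control replicate 2, with adjusted p-values of 0.65 and 0.57 over the 6 libraries in edgeR. Xiap itself, the inhibitor of caspases, had 147, 158 and 161 CPM in RBC cells and 163, 129 and 151 CPM in controls.

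No member of the death receptor arm was called. Casp8, its initiator caspase, had 39.4 ± 2.21 CPM in RBC cells and 37.5 ± 2.32 CPM in controls (log2 fold change 0.07, 95% interval -0.09 to 0.23). Fadd, the adaptor that brings caspase-8 to the receptor, had 18.5 ± 1.07 and 17.7 ± 1.12 CPM, and Cflar, the inhibitor c-FLIP, had 37.2 ± 1.46 and 34.3 ± 4.76 CPM. Casp2 had 35.1 ± 1.61 and 34.99 ± 1.55 CPM. Bcl10 is not a BCL2 protein but an adaptor that links receptors to NF-kB, and it had 29.1 ± 1.18 CPM in RBC cells and 30.9 ± 3.89 CPM in controls.

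Among genes of necroptosis and pyroptosis, Casp4 and Gsdmd had the 2 smallest p-values, and both had higher values with red blood cells without passing the test over all genes. None of the 6 tested members was called by edgeR, DESeq2 or limma voom. Casp4 encodes mouse caspase-11, which senses bacterial lipopolysaccharide in the cytosol and cleaves gasdermin D. It had 51, 64 and 47 counts in RBC libraries, against 26, 34 and 23 counts in controls, or 2.83, 3.49 and 2.61 CPM against 1.51, 1.85 and 1.29 CPM. The lowest RBC library lay above the highest control. The log2 fold change was 0.94 ± 0.20 (SE), 1.92-fold, with an unadjusted p of 0.0011 and an adjusted p of 0.061 in edgeR. The call depended on the setting: over 18 alternatives the adjusted p lay between 7.0e-04 and 0.30, 5 of them called it, and the value lay between 0.57 and 1.09. Besides the fit without control replicate 2, these were the fits with no low-count filter, with FPKM and limma at a pseudocount of 1 or 0.1, and with an offset for gene length, which called 1.28%, 1.31%, 1.32% and 3.07% of all genes they tested. Without control replicate 2 it was 1.09 (edgeR adjusted p = 7.0e-04).

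Gsdmd, gasdermin D, had 21.0, 21.3 and 22.5 CPM in RBC cells, against 18.02, 19.5 and 17.4 CPM in controls. The groups did not overlap (log2 fold change 0.24 ± 0.07 SE; unadjusted p = 0.010; edgeR adjusted p = 0.27). Without control replicate 2 it was 0.29 ± 0.08 and called, with an adjusted p of 0.0089 in edgeR. That fit called 4 of the 36 members, Plk2, Casp4 and Gsdmd higher and Bcl2l1 lower, where it called 7.96% of all tested genes (4.19% higher, 3.77% lower).

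Casp1, the caspase of the inflammasome that also cleaves gasdermin D, was not called. It had 4.22, 3.76 and 5.39 CPM in RBC cells, against 5.62, 5.33 and 4.43 CPM in controls, with overlapping libraries and a log2 fold change of -0.20 (95% interval -0.57 to 0.16). Nlrp3, an inflammasome sensor, had 3, 2 and 2 counts in RBC libraries and 1 count in each control, a ratio of 2.30 with an exact 95% interval from 0.52 to 13.8. White cell transcripts moved in the same direction as Casp4 and Gsdmd: Ptprc had 12, 13 and 11 counts in RBC libraries and 0 in each control, and Lyz2 had 83 counts over the RBC libraries and 14 over the controls. Csf1r and Cd68, also myeloid, had 24.7 ± 1.53 and 21.2 ± 0.80 CPM in RBC cells, against 24.98 ± 2.72 and 20.6 ± 1.39 CPM in controls. The part of white cell RNA in the values of Casp4, Gsdmd and Nlrp3 was not tested.

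Neither necroptosis kinase nor their target was called. Ripk1 had 73.7, 76.3 and 75.2 CPM in RBC cells, against 75.2, 63.9 and 77.5 CPM in controls, and Mlkl had 63.8, 68.1 and 66.7 CPM, against 63.1, 70.6 and 67.5 CPM. Ripk3 was scarce, with 31, 37 and 29 counts in RBC libraries and 39, 42 and 33 counts in controls (log2 fold change -0.25, 95% interval -0.66 to 0.15). Per length, Ripk3 had 0.91 FPKM in RBC cells and 1.08 FPKM in controls, against 22.6 and 22.9 FPKM of Mlkl. In GENCODE M21, 241 exonic bases of Ripk1 lie opposite Serpinb6a, which had 209 CPM in RBC cells and 222 CPM in controls.

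The promoter of Casp4 is shown for its match to the kB motif, the element that NF-kB binds, which stands in capitals as 2 overlapping matches on the plus strand. The window is that of the first of 2 RefSeq start sites (chr9:5308599-5308898, GRCm38.p6, plus strand), and the matches begin 93 and 92 bases upstream of it.
Casp4: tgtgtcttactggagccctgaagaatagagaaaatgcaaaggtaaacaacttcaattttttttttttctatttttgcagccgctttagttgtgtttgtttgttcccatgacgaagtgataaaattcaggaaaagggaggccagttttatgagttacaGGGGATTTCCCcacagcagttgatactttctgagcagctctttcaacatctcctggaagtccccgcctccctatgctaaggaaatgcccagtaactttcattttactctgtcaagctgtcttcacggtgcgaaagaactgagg
The kB motif was found in 4.51% of all 32851 windows (5.14% of genes) and in at least 1 window of 6 of the 36 members with an entry: Bbc3, Bcl10, Bcl2l1, Casp4, Nlrp3 and Trp53. Of these 6, Casp4, Trp53 and Nlrp3 had higher values in all RBC libraries than in any control. Nlrp3 did so on 3, 2 and 2 counts against 1 in each control and was not tested. Bcl2l1 had lower values in all RBC libraries, and Bbc3 and Bcl10 overlapped between the groups. Over all tested genes the RBC libraries lay above all controls in 10.4% and below all of them in 9.19%. Nothing about the factor follows from these values.

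**Figure D3:**
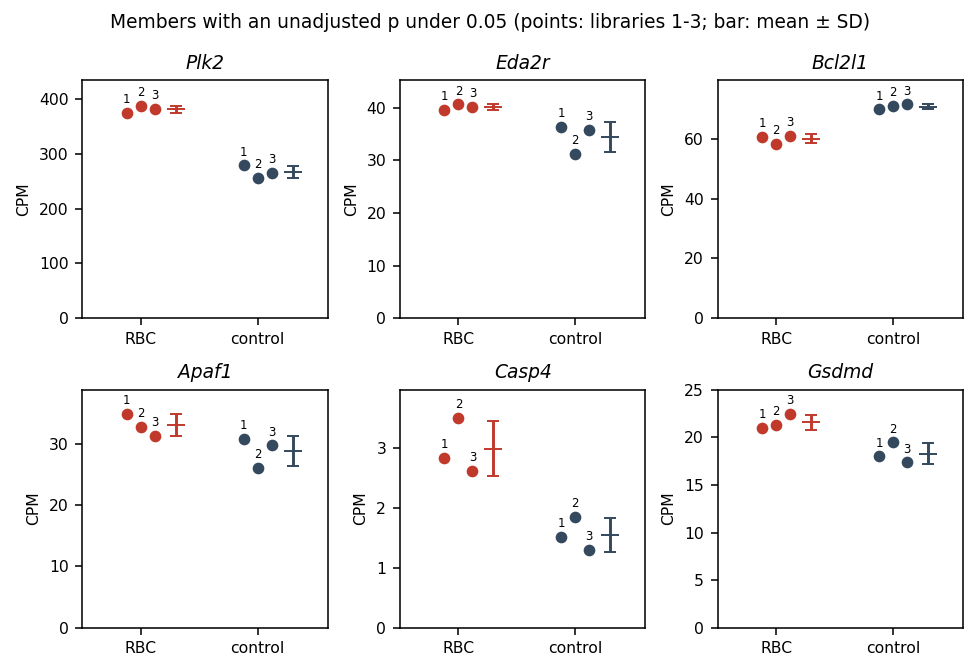
CPM of the 6 members with an unadjusted p under 0.05, with RBC libraries (red) left of control libraries (dark), points numbered by replicate and a bar for the mean ± SD (n = 3 each). In all 6 panels the groups do not overlap, and Bcl2l1 is the 1 panel in which the RBC libraries are lower. The genes were picked by p-value in these same libraries, so the lack of overlap is no separate support. Over all tested genes the RBC libraries lay above all controls in 10.4% and below all of them in 9.19%.

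Further genes of the same pathways held 6 calls, 2 higher and 4 lower. Over all tested genes 1.46% were called, 1.16% higher and 0.303% lower. The 4 lists were chosen with earlier results of these data known, and whether they differ from all genes was not tested. Of 27 tested further p53 targets, 1 was called higher and 2 lower (median log2 fold change -0.02). Fas, a death receptor that p53 and NF-kB can induce, had 35, 35 and 32 counts in RBC libraries, against 9, 5 and 11 counts in controls, a log2 fold change of 1.99 ± 0.27 (SE; edgeR adjusted p = 0.0069). Its call was lost without RBC replicate 2 (adjusted p = 0.054). Perp, a p53 target of desmosomes, fell to 105 ± 0.83 CPM in RBC cells, against 139 ± 13.8 CPM in controls (-0.40 ± 0.07 SE; edgeR adjusted p = 0.036). Ephx1, an epoxide hydrolase, fell to 40.98 ± 1.57 CPM, against 51.3 ± 2.04 CPM (-0.32 ± 0.06 SE; edgeR adjusted p = 0.039). Leaving out control replicate 1 or a single RBC library ended the Perp call, and leaving out control replicate 1 or 3 or a single RBC library ended the Ephx1 call. Perp was also not called on unfiltered FPKM with limma. With the replicate number as a block their adjusted p-values in edgeR were 0.057 and 0.089, in a fit that called 1.12% of all tested genes.

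In the further BCL2 family 1 of 9 tested genes was called, Bnip3, a hypoxia-induced receptor of mitophagy, which fell to 57.9, 64.4 and 62.0 CPM in RBC cells, against 89.7, 100.2 and 76.3 CPM in controls (-0.53 ± 0.10 SE; edgeR adjusted p = 0.034). Bcl2a1b and Bcl2a1d, near-identical inhibitors of death that are typical of white blood cells, had 15 and 17 counts over the RBC libraries and 0 over the controls. Taking 3 counts per group as the floor, this is at least 4.92-fold and 5.58-fold higher, and the split between the 2 copies is uncertain. Of 18 tested further caspases and apoptosis factors, Traf2 was the 1 call. This adaptor of TNF receptors had 67.1, 63.0 and 63.4 CPM in RBC cells, against 43.6, 46.1 and 45.6 CPM in controls (0.52 ± 0.06 SE; edgeR adjusted p = 0.0029). The inhibitor Birc3 (cIAP2) had a log2 fold change of 0.74 ± 0.18 (SE; edgeR adjusted p = 0.13) and was not called; it was chosen after its values were seen, as were Bcl2a1b, Bcl2a1d and Il1b.

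In the further necroptosis and pyroptosis list 1 of 14 tested genes was called, and it fell. Gsdme, another pore-forming gasdermin, had 6.56, 7.09 and 6.27 CPM in RBC cells, against 11.1, 10.3 and 8.97 CPM in controls (-0.61 ± 0.11 SE; edgeR adjusted p = 0.033). Gsdme and Gsdmd thus had log2 fold changes of opposite sign, -0.61 and 0.24; their difference was not tested. Bnip3 and Gsdme were not called once control replicate 1 or a single RBC library was left out, with adjusted p-values up to 0.22 and 0.19 in edgeR, nor on unfiltered FPKM with limma (0.11 and 0.088). Il1b, whose protein the inflammasome matures, had 34 counts over the RBC libraries and 1 over the controls, a ratio of 33.5 with an exact 95% interval from 5.61 to 1360.

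**Figure D4:**
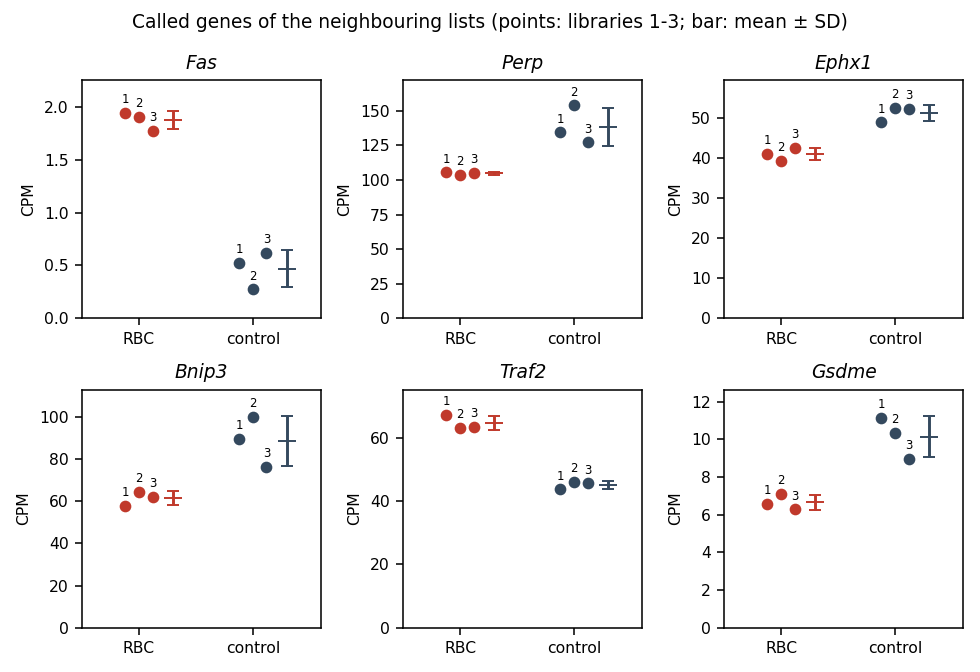
CPM of the 6 called genes of the 4 further lists, with RBC libraries (red) left of control libraries (dark), points numbered by replicate and a bar for the mean ± SD (n = 3 each). Fas and Traf2 are higher in all RBC libraries, and Perp, Ephx1, Bnip3 and Gsdme are lower in all of them.

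Control replicate 2 was the highest or the lowest of the 6 libraries in 25 of the 36 tested members, 12 times the highest and 13 times the lowest; it was extreme in 69.4% of all tested genes. Its place followed gene length. Across the 36 members its log2 ratio to the mean of the other controls had a Spearman correlation of -0.74 with gene model length, and across all tested genes -0.66; genes of 1 library are not independent replicates. Among the 16 members of at least 3585 bases, the median length of all tested genes, that ratio had a median of -0.21, and among the 20 shorter ones 0.10. With all 6 libraries 10 of the 16 longer members and 9 of the 20 shorter ones had positive log2 fold changes. Without control replicate 2 these were 7 and 11, and 9 of the 36 members changed sign. Plk2, Eda2r, Apaf1, Casp4, Gsdmd and Bcl2l1 kept their sign.

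**Figure D5:**
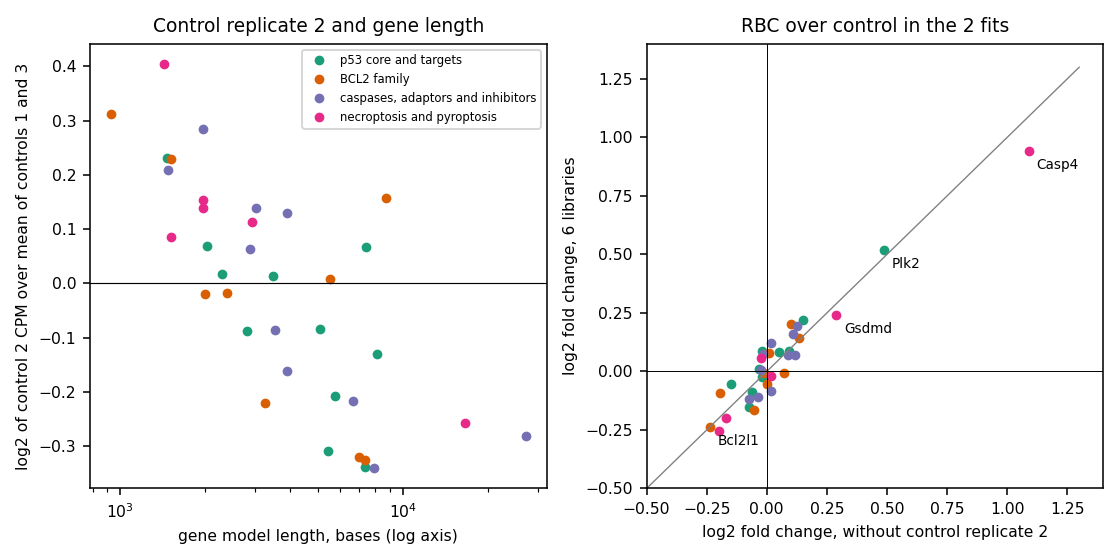
Left, log2 ratio of control replicate 2 to the mean of control replicates 1 and 3 (CPM) against gene model length in bases (log axis) for the 36 tested members, which slopes down. Right, log2 fold change, RBC over control, with 6 libraries against the value without control replicate 2, with the line of equality: the labelled Plk2, Casp4, Gsdmd and Bcl2l1 keep their sign, while 9 members near 0 change sign.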

How the data were processed

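Per the labels' protocols, the libraries came from TRIzol RNA and a stranded mRNA kit, and per the submitters' processing notes the build was GRCm39. For the aligner, counting tool, strand setting and annotation: not given in the sources used here. The authors deposited raw counts per gene and FPKM values of the same 15528 symbols; the deposited FPKM equal the counts scaled by gene length and library total (largest relative departure 2.5e-08 over 10523 genes). The test was that of edgeR 4.0.16 under R 4.3.3 (filterByExpr, minimum count 10 and total 15; TMM; quasi-likelihood test with the group as the design; two-sided p-values adjusted over 11208 genes), and 95% intervals come from the same fit. Genes were called at an adjusted p under 0.05. CPM are scaled to all listed counts. Intervals and floors of low counts cover counting error only.

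The members, the lists and the rule for named genes were chosen with earlier results of these data known. The rule accounts for all 41 members, gives values by library for those called, with an unadjusted p under 0.05, under 0.5 CPM or among the highest in their role, and names every called gene of 4 further pathway lists. Alternatives were RLE and no scaling, DESeq2 1.42.0, limma 3.58.1 voom, other filters, no erythroid genes, a replicate block, FPKM with limma on log2(FPKM + 1) or + 0.1, and leaving out each library; an offset for gene length was chosen after seeing the data. Of these steps only the edgeR test was tried on simulated counts. Those counts held no shift by gene length like that of control replicate 2. No column of another sample was used.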

Additional observations from a re-analysis of the deposited data

How the results depend on the processing

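Over all genes 130 were called higher and 34 lower with 6 libraries. The count of higher genes was 198 with the length offset and 60 to 473 with a library left out; the count of lower genes was 60 with DESeq2, 13 with the replicate block, 146 with the length offset and 2 to 426 with a library left out. The high ends, 473 and 426, came without control replicate 2. The 1 member called higher became 2, with Casp4 as the second and as the 1 call in necroptosis and pyroptosis, without a low-count filter, on FPKM with a pseudocount of 1 or 0.1 and a minimum of 1 FPKM, and with the length offset. With a library left out, 1 to 3 members were called higher (0 to 2 in necroptosis and pyroptosis) and 0 to 1 lower (0 to 1 in the BCL2 family), the upper ends without control replicate 2. The length offset called 1 member lower, Bcl2l1 of the BCL2 family. The p53 group kept 1 call and the caspase group 0 under all 18 alternatives. With a library left out, the median log2 fold change lay between -0.02 and 0.07 in the p53 group, -0.06 and 0.00 in the BCL2 family, 0.02 and 0.10 in the caspase group, and 0.00 and 0.05 in necroptosis and pyroptosis. The cause of these differences was not tested.

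Deviations from the group means of same-numbered libraries correlated at -0.03, 0.04 and 0.07. Control replicate 2 stood apart and enters the mean of the controls, so these values cannot show whether replicate numbers pair the libraries. The replicate block left 113 genes called higher and 1 member, Plk2 (adjusted p = 0.0093). At the depth of these libraries, members under 6 CPM, such as Ripk3 and Bbc3, had intervals reaching beyond 0.5 on the log2 scale.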
